A study of Mus musculus with 96 samples.

Results

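The connexin and pannexin genes described here are 8 genes whose proteins form channels in the cell membrane: Gja1, Gjb6, Gjb2, Gjb1, Gjc3, Gjd2, Panx1 and Panx2. They were taken by symbol from every deposited table of mouse striatum, and all 8 were among the 15260 gene symbols present in all 3 tables. Of other connexin and pannexin genes, Gja4, Gja5, Gja6, Gjc1 and Gjd3 are described as well, and the rest are not described here. Connexins assemble into hexameric hemichannels that dock between neighbouring cells as gap junctions, through which ions, metabolites and second messengers pass. Astrocytes are coupled to each other mainly through the products of Gja1, Gjb6 and Gjb2, and to oligodendrocytes through pairs of unlike connexins that include Gjb1. Gjc3 is a connexin of myelinating glia, Gjd2 forms the electrical synapses of neurons, and the pannexins form large-pore channels that do not usually dock, with Panx1 known as a path of ATP release.

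The study compared striatal RNA of 2 Huntington's disease mouse models with controls. Q175 mice were set against WT mice, both of strain C57BL/6J, at 2, 6 and 12 months, and R6/2 mice were set against NCAR mice, both CBA x C57BL/6, at 1, 2 and 3 months. As background, Q175 carries a long CAG repeat in mouse Htt itself, while R6/2 carries a transgene made from the beginning of human HTT. Every animal had been given an adeno-associated virus into the striatum, controls included, and each genotype and age has 4 input libraries of whole tissue and 4 IP libraries from an immunoprecipitation, all polyA RNA. What the virus carried, what was precipitated, the sex of the mice and any pooling are not given in the sources used here, and the series title speaks of astrocyte signatures. Whether each library is 1 mouse is not in the labels, and the p-values therefore measure only how far these libraries scatter, which may be technical. The 1-month R6/2 and NCAR libraries carry a run label of their own, so age and run cannot be told apart there.

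The recovered totals were 41.87 to 84.21 M (mega) reads per IP library and 27.12 to 51.19 M reads per input library. Htt was lower in Q175 IP libraries at each age, with log2 changes of -0.39 ± 0.04 at 2 months, -0.31 ± 0.06 at 6 months and -0.49 ± 0.07 at 12 months (SE, adjusted p = 0.00959, 0.0145 and 0.00369), and passed the test in no R6/2 comparison. In Q175 input at 2 months 0 of 15342 tested genes were called lower, so Htt was not called lower there. The Htt values in Q175 input are not reported here. All 12 astrocyte markers were higher in IP than in input in each of the 6 control groups, with medians of 2.40 to 3.32 on the log2 scale. All 8 microglia markers and at least 8 of 9 measured medium spiny neuron markers were lower in IP in each of these groups. In the mutants, 8 of 9 medium spiny neuron markers were lower in Q175 at 6 and 12 months and in R6/2 at 2 and 3 months in both RNA types, and in R6/2 input at 1 month. No marker of the astrocyte, oligodendrocyte, medium spiny neuron or microglia lists was at 0 reads in any library.

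Per kilobase of annotated exon, Gja1 and Gjb6 led the IP libraries, whereas Gjb1, Gja1, Gjc3 and Gjb6 lay close together in whole tissue. In WT input at 2 months the mean levels were 13.5 CPM per kb for Gjb1, 13.3 for Gja1, 11.9 for Gjc3, 10.7 for Gjb6, 8.47 for Panx2, 3.60 for Panx1, 2.38 for Gjd2 and 1.11 for Gjb2. Per kb, Gjb1 and Gja1 differed there by less than the spread between libraries. Without division by length the means were 136 CPM for Gja1 and 23.1 CPM for Gjb1. The exon lengths are unions over annotated transcripts, 10.257 kb for Gja1 and 1.707 kb for Gjb1. Which transcripts these libraries held was not tested, so the order per kb depends on that annotation. In WT IP at the same age Gja1 reached 103 CPM per kb and Gjb6 55.5, followed by Gjb1 with 8.99, Gjc3 with 7.71, Panx2 with 6.28, Gjb2 with 4.92, Gjd2 with 3.68 and Panx1 with 3.44. Gjb1 and Gjc3 could not be ordered there, since their levels varied between libraries by more than the difference, and neither could Gjd2 and Panx1. Over all groups the mean per-kb level of Gja1 ran from 56.2 to 236 in IP and from 10.2 to 16.2 in input, and that of Gjb2 from 3.94 to 7.07 in IP and from 0.907 to 1.95 in input. Relative to its level Panx1 kept the narrowest range, 2.73 to 3.79 in IP and 2.91 to 4.10 in input. The 3 deposited tables were normalized separately, so levels set across run labels are side by side only and were not tested.

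**Figure D1:**
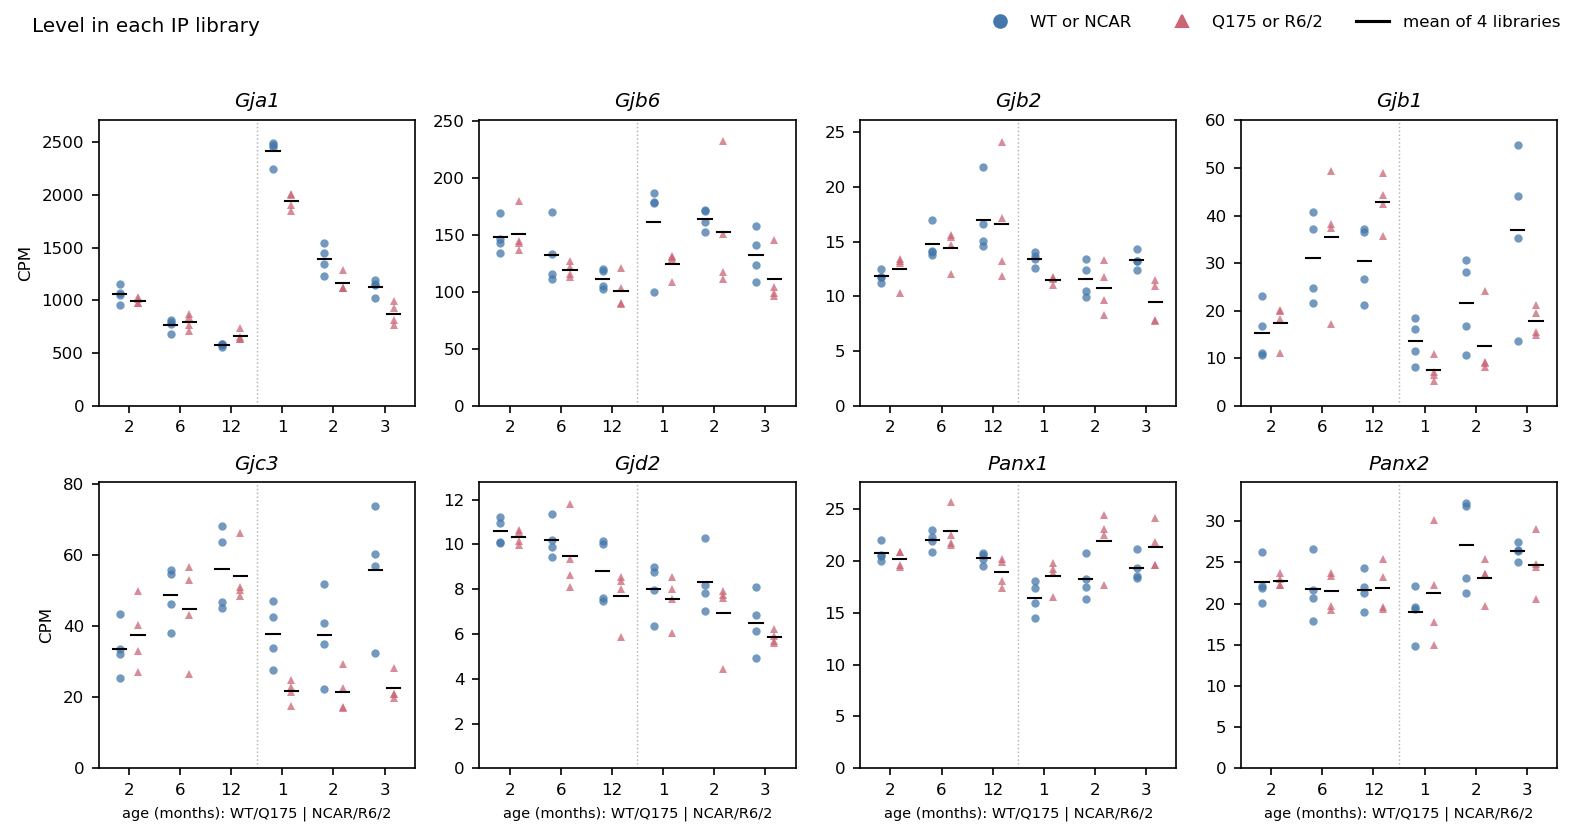
Level of each of the 8 genes in every IP library, as CPM (reads of a gene per M reads after scaling) on a linear axis, by genotype and age. Points are libraries, 4 to a group, and bars are group means. Gja1 runs from 560 CPM in WT at 12 months to 2490 CPM in NCAR at 1 month.

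**Figure D2:**
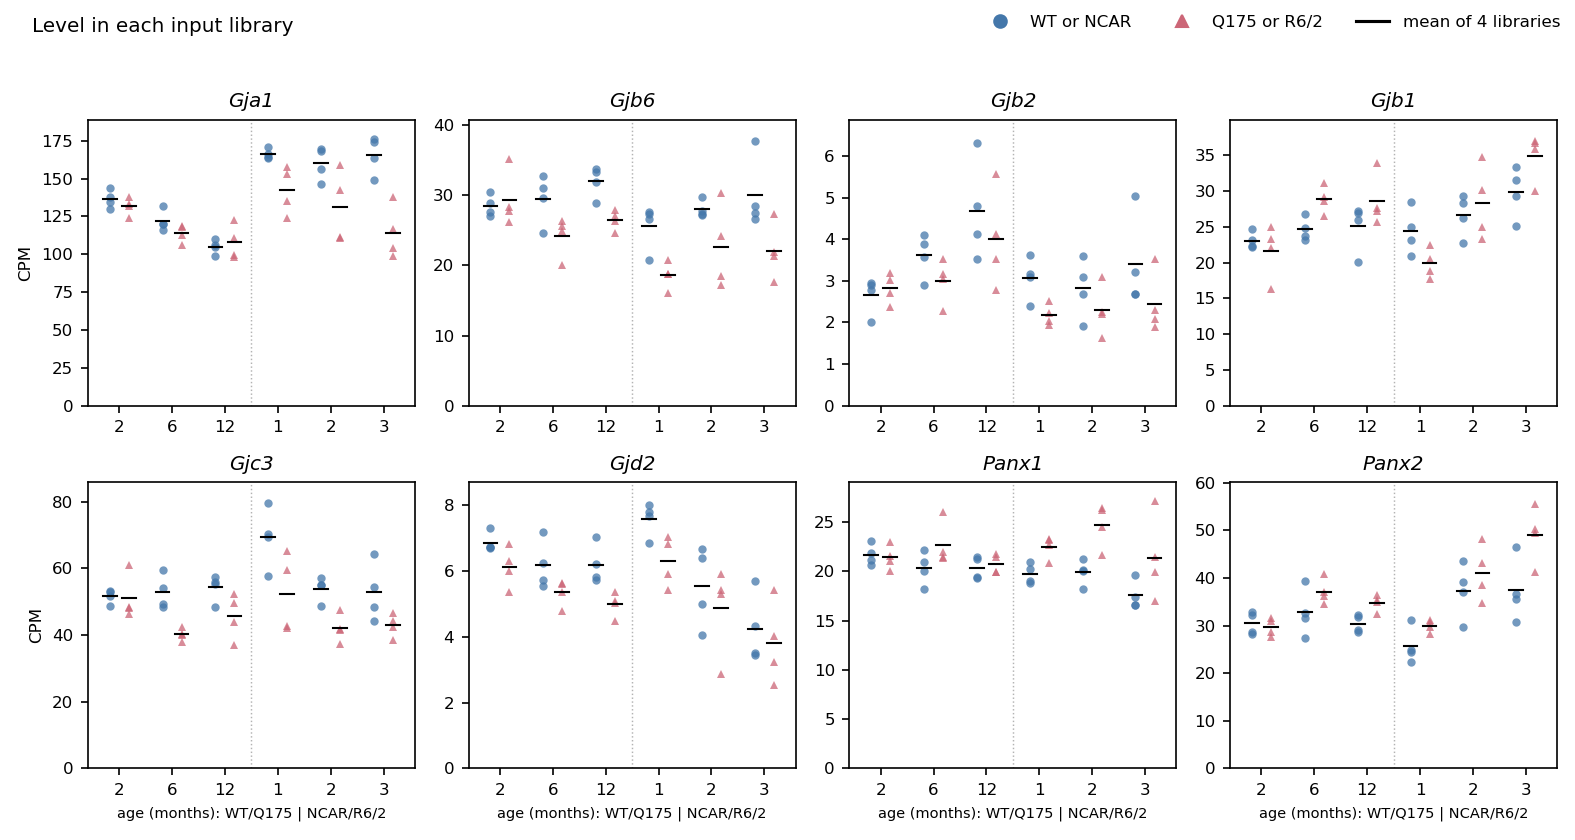
The same for every input library, with CPM on a linear axis, points for libraries and bars for group means. Gja1 stays between 97.9 and 176 CPM, and Gjb2 has the lowest group means, 2.18 to 4.68 CPM.

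Gja1, the main astrocyte gap junction gene (chr10:56377330-56402513, plus strand, mm10), was the member with the highest IP level. In WT at 2 months its 4 IP libraries held 960, 1054, 1072 and 1153 CPM and its input libraries 130, 134, 138 and 144 CPM. The IP and input libraries lay far apart, a log2 difference of 2.94 ± 0.06 (7.68-fold, adjusted p = 7.95e-11). The test is limma on log2 CPM with Benjamini-Hochberg adjustment over all genes, and a gene is called at an adjusted p under 0.05. Over the 6 control groups the log2 difference of Gja1 ran from 2.47 to 3.85, and all 6 were called. The share of all genes called between IP and input, in either direction, was 79.6%, 76.9% and 77% in WT from the youngest age to the oldest and 71.7%, 55.8% and 56.7% in NCAR in the same order, so a call by itself is common here and the size and direction carry the description. Over the members, 35 of 48 such tests were called.

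Gjb6 and Gjb2, which astrocytes express beside Gja1, are neighbours on chromosome 14, both on the minus strand and 18.6 kb apart (Gjb2 at chr14:57098600-57104702 and Gjb6 at chr14:57123303-57133611). Gjb6 held 134, 143, 146 and 170 CPM in WT IP at 2 months and 27, 27.6, 29 and 30.5 CPM in input. Its IP libraries were all above the input libraries, with log2 differences of 1.82 to 2.61 over the 6 control groups, all called. Gjb2 was scarcer, with 11.2, 11.8, 11.8 and 12.5 CPM in WT IP at 2 months against 2.01, 2.78, 2.90 and 2.95 CPM in input. The log2 differences of Gjb2 were 1.89 to 2.15 in the 6 control groups, again all called.

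The start regions of Gja1 and Gjb6 are shown because these genes were both several-fold higher in IP but followed the other astrocyte markers to unlike degrees, as given further on. Both are RefSeq sequences on GRCm38.p6, from 250 bases before the annotated start to 50 after it: Gja1 at chr10:56377050-56377349 on the plus strand and Gjb6 at chr14:57133562-57133861 on the minus strand. Capitals mark matches, on either strand, to the GC box GGGCGG, the TATA box TATAAA, the CCAAT box with those 5 letters, or the E-box CANNTG.
Gja1: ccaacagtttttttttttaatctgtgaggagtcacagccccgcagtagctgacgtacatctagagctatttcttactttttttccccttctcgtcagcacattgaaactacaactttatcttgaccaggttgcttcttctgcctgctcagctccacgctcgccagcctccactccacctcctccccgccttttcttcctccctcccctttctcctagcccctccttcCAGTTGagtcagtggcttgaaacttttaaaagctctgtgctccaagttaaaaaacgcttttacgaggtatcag
Gjb6: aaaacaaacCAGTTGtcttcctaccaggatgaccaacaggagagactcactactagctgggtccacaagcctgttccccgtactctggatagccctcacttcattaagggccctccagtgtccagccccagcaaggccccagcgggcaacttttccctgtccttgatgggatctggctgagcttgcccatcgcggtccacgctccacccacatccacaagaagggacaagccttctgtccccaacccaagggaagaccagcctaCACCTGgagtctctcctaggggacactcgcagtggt
The Gja1 window holds 1 match, a CANNTG at base -23 from the start, and the Gjb6 window holds CANNTG at -241 and 15. None of the other 3 motifs was found in them. CANNTG was present in 72.3% of 32851 such windows in the RefSeq table, GGGCGG in 35.7%, CCAAT in 37.4% and TATAAA in 13.6%. GC content was 47.7% for Gja1, 57.3% for Gjb6 and 70.0% for Gjb2, whose window held 27 CpG dinucleotides against 6 in that of its neighbour Gjb6. A match is a description of the letters and no evidence of binding.

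The oligodendrocyte connexins Gjb1 and Gjc3 were called higher in IP in no control group, and their place relative to input changed with age. Gjc3 (chr5:137953461-137963098, minus strand) held 25.3, 32.2, 33.5 and 43.4 CPM in WT IP at 2 months against 48.7, 51.8, 53.0 and 53.4 CPM in input, all IP libraries below all input libraries. It was lower in IP in WT at 2 months (log2 -0.66 ± 0.13, adjusted p = 0.000952), in NCAR at 1 month (-0.90 ± 0.16, adjusted p = 0.000693) and in NCAR at 2 months (-0.60 ± 0.22, adjusted p = 0.0424). The last call held in 7 of 14 alternatives, and without NCAR IP replicate 3 the value was -0.36 (adjusted p = 0.068). Its differences at the other ages, -0.13, 0.04 and 0.04, did not pass, except that the deposited scaling called the first, WT at 6 months (-0.39, adjusted p = 0.0106). Gjb1 (chrX:101376378-101385629, plus strand) was lower in IP in WT at 2 months (-0.67 ± 0.21, adjusted p = 0.0142) and in NCAR at 1 month (-0.91 ± 0.23, adjusted p = 0.00508), and its other 4 differences lay between -0.43 and 0.29 without passing. With 1 IP library left out, Gjb1 was higher in IP and called in WT at 6 months (0.45 without replicate 3, from 0.29), in WT at 12 months (0.42 without replicate 1, from 0.26) and in NCAR at 3 months (0.58 without replicate 2, from 0.16), with adjusted p of 0.0167, 0.0152 and 0.0114. The 12 oligodendrocyte markers moved beside them: their median IP over input difference was -0.15, 0.60 and 0.63 in WT and -0.61, -0.03 and 0.72 in NCAR, in order of age. Their part in the connexin values was not tested.

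The start regions of Gjb1 and Gjc3 are shown because these genes varied together between IP libraries. RefSeq lists 4 start windows for Gjb1, and the most upstream is printed (chrX:101376126-101376425, plus strand), with the single window of Gjc3 (chr5:137963049-137963348, minus strand), both on GRCm38.p6 and with capitals as before.
Gjb1: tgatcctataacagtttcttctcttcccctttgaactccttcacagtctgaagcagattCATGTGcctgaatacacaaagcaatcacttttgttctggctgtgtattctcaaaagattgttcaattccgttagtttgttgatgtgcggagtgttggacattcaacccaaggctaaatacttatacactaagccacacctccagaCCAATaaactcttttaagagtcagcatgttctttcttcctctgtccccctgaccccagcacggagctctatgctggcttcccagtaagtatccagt
Gjc3: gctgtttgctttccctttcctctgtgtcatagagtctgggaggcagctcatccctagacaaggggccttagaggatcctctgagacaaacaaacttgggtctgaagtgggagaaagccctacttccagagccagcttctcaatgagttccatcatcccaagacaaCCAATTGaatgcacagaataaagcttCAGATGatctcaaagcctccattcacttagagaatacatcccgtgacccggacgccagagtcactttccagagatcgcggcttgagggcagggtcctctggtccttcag
The printed Gjb1 window holds CANNTG at -191 and CCAAT at -46. The Gjc3 window holds CANNTG at -84 and -59 and CCAAT at -85, and its CCAAT overlaps the first CANNTG. The SOX-type letters ACAAAG were found at -176 in the printed Gjb1 window, where they are not capitalised, and not in the Gjc3 window. Of all windows, 18.7% hold them. The most downstream Gjb1 window (chrX:101383482-101383781), not printed, holds GGGCGG at -203, -182 and -111, TATAAA at -29 and CCAAT at 13. It also holds CANNTG at -168, -132 and -19, ACAAAG at -57 and ACAATG, also SOX-type, at -47. Which Gjb1 start these libraries used was not tested.

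Gjd2, the neuronal electrical synapse connexin (chr2:114009601-114013619, minus strand), was modestly higher in IP. Its libraries held 10.1, 10.1, 11.0 and 11.2 CPM in WT IP at 2 months and 6.69, 6.71, 6.72 and 7.31 CPM in input, without overlap. The log2 difference was 0.51 to 0.73 in the 5 control groups where it was called, and 0.07 ± 0.13 in NCAR at 1 month, where it was not. Those calls were lost in NCAR with 1 library left out, in 5 of 14 alternatives at 2 months and 4 of 14 at 3 months, and in WT at 12 months with the deposited scaling (0.27, adjusted p = 0.0701). Panx2, a pannexin found mainly in brain (chr15:89059734-89073567, plus strand), went the other way and was lower in IP in all 6 control groups, by log2 differences of -0.45 to -0.60. Its 4 WT libraries at 2 months held 20.1, 21.9, 22.1 and 26.3 CPM in IP and 28.3, 28.6, 32.2 and 32.8 CPM in input. With 1 library left out the Panx2 call was lost in 5 of 14 alternatives in NCAR at 2 months (adjusted p up to 0.102) and 1 in NCAR at 1 month (0.0548). Panx1 (chr9:15002128-15045478, minus strand) was close to equal in both RNA types, and only the NCAR difference at 1 month was called (-0.28 ± 0.09, adjusted p = 0.0208), a call lost without IP replicate 3 or input replicate 3 or 4 (0.0538, 0.0703 and 0.0639). For comparison, the medians of 10 pan-neuronal markers were -0.06, 0.24 and 0.32 in WT and -0.21, 0.05 and 0.25 in NCAR. Gjd2 and Panx2 each overlap an antisense gene (A530058N18Rik and 1810021B22Rik), and whether counting used strand is not stated, so reads of the antisense partners cannot be told apart from theirs. With the scaling of the deposited values the median of all genes moves to -0.27, -0.28 and -0.26 in WT, and Panx1 at 12 months, at 0.00 before, then reads -0.24, close to that shift, and is called (adjusted p = 0.00389), as is Panx1 at 2 months (-0.32, adjusted p = 0.000255).

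**Figure D3:**
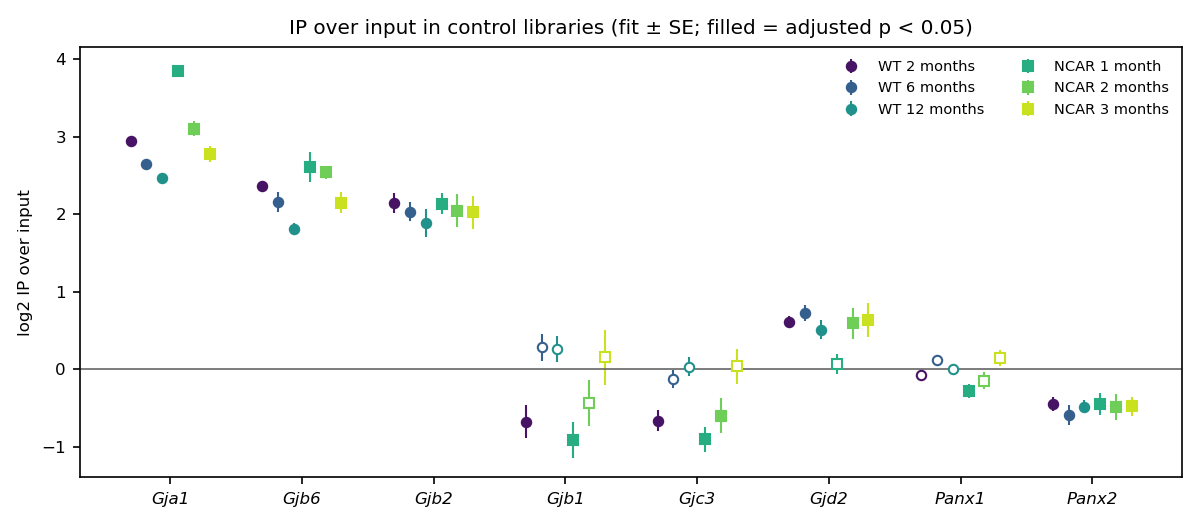
Log2 difference of IP over input for each gene in the 6 control groups, with bars for the standard error and filled points for an adjusted p under 0.05. Gja1, Gjb6 and Gjb2 lie between 1.82 and 3.85, Gjd2 is at most 0.73, and Panx2 lies between -0.60 and -0.45.

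The likeness of each gene to cell type markers was described within groups, as the Pearson r between the gene's log2 CPM and the mean of a marker list after the group mean was taken from both, over 24 libraries of each cohort and RNA type. These libraries share depth and RNA quality with every gene in them, so the values are descriptions with no test. In IP, Gjb1 followed the oligodendrocyte markers most closely, with r of 0.97 over the Q175 and WT libraries and 0.92 over the R6/2 and NCAR libraries. Gjc3 had r of 0.91 and 0.89 with the same markers, and Gjb1 and Gjc3 had r of 0.90 and 0.88 with each other. In input these values were lower, 0.65 and 0.35 for Gjb1 and 0.61 and 0.72 for Gjc3 with the markers. There Gjb1 had 0.60 and 0.59 with the endothelial and mural markers and 0.17 and 0.48 with the astrocyte markers, so in R6/2 and NCAR input the oligodendrocyte value was not its highest. Gja1 followed the astrocyte markers in both RNA types, with 0.84 and 0.66 in IP and 0.72 and 0.73 in input. In R6/2 and NCAR input Gja1 also had 0.57 with pan-neuronal, 0.50 with medium spiny neuron and 0.50 with interneuron markers. In Q175 and WT input those values were 0.20, -0.38 and -0.11.

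Gjb6 did not follow the same astrocyte markers as steadily as Gja1. With them it had an r of 0.55 (Q175 and WT) and -0.08 (R6/2 and NCAR) among IP libraries, 0.28 and -0.10 among input libraries, and its r with Gja1 was 0.53 and 0.03 in IP. In Q175 and WT input Gjb6 had more with interneuron (0.51), oligodendrocyte (0.48) and endothelial and mural markers (0.45) than with astrocyte markers. In R6/2 and NCAR input those values were 0.26, -0.30 and -0.44. Gjb2 had r of 0.63 and 0.70 with the astrocyte markers in IP, and 0.30 and 0.19 in input. With the medium spiny neuron markers Gjb2 had -0.85 and -0.30 in IP. Panx2 followed the pan-neuronal markers in input with 0.73 and 0.68, while Panx1 ran against them with -0.40 and -0.71. In IP the values were 0.28 and 0.58 for Panx2 and 0.40 and -0.34 for Panx1. With the interneuron markers Panx2 had 0.18 and 0.68 in IP, so in R6/2 and NCAR IP its pan-neuronal value was not its highest. Gjd2 ran against the medium spiny neuron markers in input, with -0.37 in Q175 and WT and -0.68 in R6/2 and NCAR. In IP its r with them was 0.77 and -0.17, so in Q175 and WT the sign differed between the RNA types.

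Among 11034 genes ranked in input, the gene most like Gjb6 was Etnppl, an astrocyte enzyme of phosphoethanolamine breakdown, with r of 0.76 and 0.87. Gja1 was most like Ednrb, an endothelin receptor (0.69 and 0.76), followed by Mef2c and Edil3. Gjc3 was followed by Phldb1 and Tspan2. Gjb1 was followed by Ppp1r14a (0.83 and 0.65), Gatm, an enzyme of creatine synthesis, and Zfp580. For Gjb2 the genes were Cd81, Smo and Ccdc101, with mean r of 0.61, 0.61 and 0.53, the lowest of the 8 members. Panx2 had Nisch (0.82 and 0.87), Apbb2 and Ubald1. Panx1 had Ist1 and Map2k2, and Gjd2 had Ndufc2, Ormdl1 and Hint2.

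With age in WT mice the astrocyte connexins parted. From 2 to 12 months Gja1 fell in IP from 960, 1054, 1072 and 1153 CPM to 560, 571, 586 and 588 CPM, with no overlap. Its log2 change was -0.86 ± 0.06 in IP (1.81-fold lower, adjusted p = 9.71e-05) and -0.39 ± 0.05 in input (adjusted p = 0.000518). Gjb6 also fell in IP, by 0.39 ± 0.08 on the log2 scale (adjusted p = 0.00554), whereas in input it had a difference of 0.15 ± 0.06 that was not called, or 0.20 and called with the deposited scaling (adjusted p = 0.0416) or without WT replicate 3 at 12 months (adjusted p = 0.0462). Gjb2 rose in both RNA types, from 11.2, 11.8, 11.8 and 12.5 to 14.6, 15.0, 16.6 and 21.8 CPM in IP (0.52 ± 0.12, adjusted p = 0.00935) and from 2.01, 2.78, 2.90 and 2.95 to 3.52, 4.12, 4.79 and 6.31 CPM in input (0.79 ± 0.19, adjusted p = 0.0128). Every 12-month library of Gjb2 was above every 2-month library of its RNA type.

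Gjb1 and Gjc3 rose with age in WT IP and were not called in input. Gjb1 went from 10.6, 11.1, 16.8 and 23.0 CPM at 2 months to 21.1, 26.6, 36.6 and 37.1 CPM at 12 months, with some overlap, a log2 change of 1.04 ± 0.26 (adjusted p = 0.0179). Gjc3 had a change of 0.76 ± 0.18 (adjusted p = 0.0128). In input the changes were 0.10 ± 0.09 and 0.06 ± 0.06, and without WT replicate 2 at 12 months the Gjb1 change was 0.20 and called (adjusted p = 0.0384). The Gjb1 call was lost without WT replicate 3 at 2 months (0.90, adjusted p = 0.0558) or without WT replicate 4 at 12 months (0.93, adjusted p = 0.0542). In the same IP comparison 8 of 12 oligodendrocyte markers were higher, with a median of 0.84, and 7 of 12 astrocyte markers were lower, with a median of -0.56, and their part in these changes was not tested. In all, 7 of 32 member tests of age were called and 11 had an unadjusted p under 0.05. Of all genes, 38.1% had such a p in WT IP, 38.4% in WT input, 5.8% in NCAR IP and 15.1% in NCAR input. All 7 calls were in WT, where 25.6% of all genes were called in IP and 26.2% in input; NCAR at 3 against 2 months gave none among the members and 0% of all genes, with limma.

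Between genotypes, 8 of 96 member tests were called, and the calls fell on 4 of the 8 genes: Gjc3 and Gjb6 with 3 each, and Gja1 and Gjb1 with 1 each. In Q175 against WT, 3 of 48 tests were called and 9 had an unadjusted p under 0.05. In R6/2 against NCAR, 5 of 48 were called and 25 had an unadjusted p under 0.05. The share of all genes called, in either direction, was 0.0199%, 3.8% and 6.97% in Q175 IP and 0.00652%, 13.9% and 18.4% in Q175 input at 2, 6 and 12 months. For R6/2 IP the shares were 0.0794%, 5.61% and 14.2% at 1, 2 and 3 months, and for R6/2 input 12.3%, 16% and 28.1%. At 8 genes per comparison the members' counts of 0 to 2 calls are near these shares, and nothing is read from the counts themselves.

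The members' median change was lower in R6/2 than in Q175. It was -0.25, -0.23 and -0.31 in R6/2 IP and -0.28, -0.25 and -0.25 in R6/2 input, at 1, 2 and 3 months, where the median of all genes was at most 0.03. The Q175 IP values were 0.04, -0.01 and -0.05, those of input -0.03, -0.13 and -0.10, with an all-gene median of at most 0.02. The libraries of the genotypes did not overlap in 15 of 96 cases, 12 with the mutant lower and 3 with the mutant higher. The share of all genes without overlap was not computed, so nothing is read from these counts. In these bulk samples fewer cells of a type and less RNA per cell cannot be told apart.

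**Figure D4:**
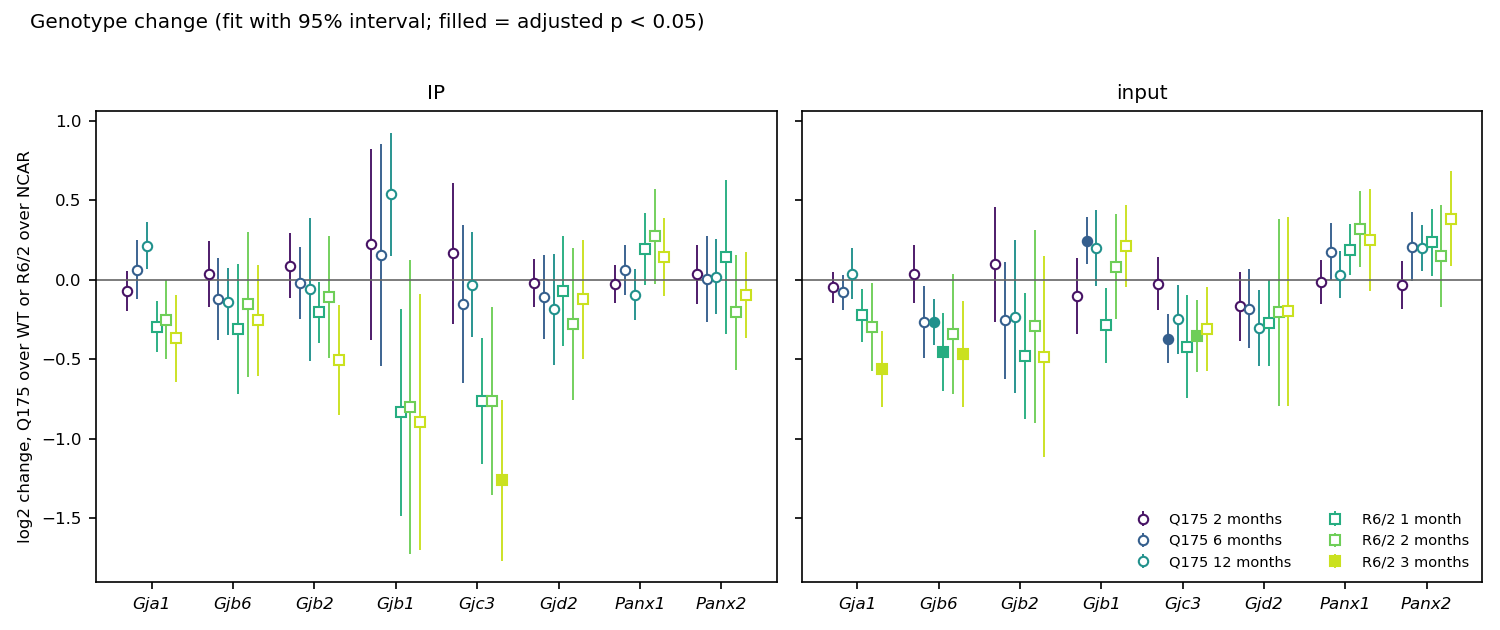
Log2 change of each gene in the mutant against its control, for IP and input, with bars for the 95% confidence interval and filled points for an adjusted p under 0.05. The most negative value is Gjc3 in R6/2 IP at 3 months, -1.26, and Gjb1 in Q175 input at 6 months, 0.25, is the call above 0.

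Gja1 fell in whole striatum of R6/2 mice at 3 months. Its NCAR input libraries held 149, 163, 174 and 176 CPM and its R6/2 libraries 98.7, 104, 116 and 138 CPM. Every R6/2 library was below every NCAR library. The log2 change was -0.56 ± 0.11 (1.48-fold lower, adjusted p = 0.0038). The change at 1 and 2 months was -0.22 ± 0.08 and -0.30 ± 0.12, neither called (adjusted p = 0.0777 and 0.138), and at 1 month the libraries again did not overlap. In IP the R6/2 values were -0.30 ± 0.07, -0.25 ± 0.11 and -0.37 ± 0.12 by age, not called (adjusted p = 0.174, 0.21 and 0.0706). The 3-month IP value was called with the ages fitted together (-0.36, adjusted p = 0.0294) or without NCAR replicate 3 (-0.43, adjusted p = 0.0389). The input values were called without R6/2 replicate 1 at 1 month (-0.27, adjusted p = 0.0353) and without R6/2 replicate 3 at 2 months (-0.41, adjusted p = 0.0401). At 2 months in input the astrocyte covariate turned the sign (0.24 ± 0.26), and the oligodendrocyte covariate gave -0.50 ± 0.14 (adjusted p = 0.0502). The 12 astrocyte markers had a median of -0.56 in R6/2 input at 3 months, where 8 fell and 1 rose, and their summed level was 5624 to 6669 CPM in NCAR and 3338 to 4379 CPM in R6/2. With the astrocyte marker level as a covariate Gja1 had 0.10 ± 0.31 (adjusted p = 0.921), and with the oligodendrocyte marker level -0.33 ± 0.26 (adjusted p = 0.59). These covariates took the calls among all genes there from 4318 to 5 and 178, so the lost call is not particular to Gja1.

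In Q175 mice Gja1 was not called at any age. The nearest was IP at 12 months, where WT libraries held 560, 571, 586 and 588 CPM and Q175 libraries 636, 636, 652 and 738 CPM. The mutant libraries were all above the WT libraries, and the log2 difference was 0.21 ± 0.07 (adjusted p = 0.0889). With the deposited scaling it was 0.27 ± 0.07 and called (adjusted p = 0.0348), and with all ages in 1 fit it was 0.21 and called (adjusted p = 0.0491). The sign is opposite to that of the R6/2 IP values, none of which was called either, and the difference between the models was not tested.

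Gjb6 fell in whole tissue of both models. In Q175 input at 12 months its libraries held 24.6, 26.3, 27.0 and 27.9 CPM against 28.9, 31.9, 33.3 and 33.7 CPM in WT. All Q175 libraries were below all WT libraries, with a log2 change of -0.27 ± 0.07 (adjusted p = 0.0148). With the deposited scaling, which raises the median of all genes to 0.11 here, it was -0.16 ± 0.07 and not called (adjusted p = 0.0944), and without Q175 replicate 3 it was -0.23 ± 0.07 (adjusted p = 0.051). The oligodendrocyte marker level as a covariate also ended the call (-0.22 ± 0.08, adjusted p = 0.0977). At 6 months Gjb6 had -0.26 ± 0.10 (adjusted p = 0.123).

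In R6/2 input, Gjb6 fell at 1 month, from 20.8, 26.6, 27.3 and 27.7 CPM in NCAR to 16.1, 18.8, 18.8 and 20.8 CPM, with the highest R6/2 library about level with the lowest NCAR library. The log2 change was -0.45 ± 0.11 (adjusted p = 0.0237). It fell again at 3 months, from 26.7, 27.5, 28.5 and 37.8 CPM to 17.6, 21.4, 21.9 and 27.4 CPM, with overlap (-0.47 ± 0.15, adjusted p = 0.0395). At 2 months the difference was -0.34 ± 0.17 and not called, and without R6/2 replicate 3 it was -0.50 and called (adjusted p = 0.0342). Both calls depended on single libraries. At 1 month the call was lost without NCAR replicate 2, 3 or 4 or R6/2 replicate 4 (adjusted p = 0.0739, 0.0706, 0.0753 and 0.0594), and with either marker covariate, at -0.17 ± 0.23 with the astrocyte and -0.41 ± 0.14 with the oligodendrocyte level (adjusted p = 0.811 and 0.132). At 3 months it was lost without any NCAR replicate (0.0868, 0.0562, 0.0575 and 0.0716 for replicates 1 to 4), without R6/2 replicate 1 or 3 (0.0827 and 0.117), and with either covariate, where the fall was larger but so was its error (-1.17 ± 0.48 and -1.07 ± 0.32, adjusted p = 0.326 and 0.16). In IP the Gjb6 changes of R6/2 were -0.31, -0.16 and -0.26, none called. Without NCAR IP replicate 1 at 1 month the first was -0.52 and called (adjusted p = 0.0431). In R6/2 input at 1 month 2 of 12 astrocyte markers fell, with a median of -0.23.

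Gjb2 was called in no genotype comparison. In R6/2 IP at 3 months its libraries held 7.77, 7.81, 10.9 and 11.5 CPM against 12.5, 13.2, 13.2 and 14.3 CPM in NCAR. The R6/2 libraries were all lower, with a log2 difference of -0.50 ± 0.16 (adjusted p = 0.0566). In input its level was so low, 0.907 to 1.95 CPM per kb, that the SE reached 0.29, and the R6/2 differences of -0.48, -0.29 and -0.48 were not called. The IP difference at 3 months was called without NCAR replicate 3 (-0.55, adjusted p = 0.0454), without R6/2 replicate 4 (-0.60, adjusted p = 0.0429) or with the ages fitted together (-0.49, adjusted p = 0.0479), and it was 0.05 ± 0.29 with the astrocyte marker level as a covariate.

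Gjc3 gave the largest change among the members' genotype tests. In R6/2 IP at 3 months it fell from 32.6, 57.0, 60.2 and 73.8 CPM in NCAR to 19.8, 20.8, 21.1 and 28.3 CPM. No library overlapped, although the NCAR libraries differed among themselves by more than the R6/2 libraries did. The log2 change was -1.26 ± 0.23 (2.40-fold lower, adjusted p = 0.00754). In the same libraries 8 of 12 oligodendrocyte markers fell, with a median of -1.60, and their summed level was 3968 to 12792 CPM in NCAR and 2097 to 3579 CPM in R6/2. With that marker level as a covariate Gjc3 had -0.33 ± 0.27 (adjusted p = 0.443), and with the astrocyte marker level -0.72 ± 0.49 (adjusted p = 0.607). These covariates took the calls among all genes there from 2136 to 462 and 26, so the lost call is not particular to Gjc3. At 1 and 2 months the Gjc3 differences in IP were -0.76 ± 0.18 and -0.76 ± 0.26, not called (adjusted p = 0.162 and 0.124, the latter -0.99 and called at 0.0402 without NCAR replicate 3), and the marker medians there were -0.70 and -0.93.

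In whole tissue Gjc3 fell in both models. In Q175 input at 6 months its libraries held 37.9, 40.2, 40.4 and 42.4 CPM against 48.5, 49.3, 54.2 and 59.6 CPM in WT, with every Q175 library lower. The log2 change was -0.37 ± 0.07 (1.29-fold lower, adjusted p = 0.00544), and it was called in all 16 alternatives run. At 12 months the difference was -0.25 ± 0.10 (adjusted p = 0.105), and -0.31 and called without Q175 replicate 4 (adjusted p = 0.0447). In R6/2 input at 2 months Gjc3 fell from 48.8, 55.0, 55.1 and 57.0 CPM in NCAR to 37.5, 41.6, 41.9 and 47.4 CPM, again apart (-0.35 ± 0.10, adjusted p = 0.0408). That call was lost without R6/2 replicate 1, 3 or 4 or NCAR replicate 1, 2 or 3 (adjusted p = 0.084, 0.0533, 0.095, 0.0891, 0.0951 and 0.1) and with either marker covariate (-0.02 ± 0.23 with the astrocyte and -0.24 ± 0.13 with the oligodendrocyte level). The differences at 1 and 3 months were -0.42 ± 0.15 and -0.31 ± 0.12 (adjusted p = 0.0873 and 0.0788). They were called without R6/2 replicate 3 at 1 month (-0.53, adjusted p = 0.0325), and at 3 months without NCAR replicate 3 or with the ages fitted together (adjusted p = 0.0467 and 0.0471). Of the oligodendrocyte markers 4 of 12 fell in Q175 input at 6 months, with a median of -0.10, and 4 of 12 fell in R6/2 input at 2 months, with a median of -0.22.

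Gjb1, the other oligodendrocyte connexin, did not go the same way as Gjc3 in whole tissue. In Q175 input at 6 months, where Gjc3 fell, Gjb1 rose from 23.1, 23.7, 24.9 and 26.8 CPM in WT to 26.5, 28.5, 29.2 and 31.1 CPM. The lowest Q175 library lay just under the highest WT library, and the log2 change was 0.25 ± 0.07 (adjusted p = 0.0353). This call was lost when any of 6 libraries was left out (Q175 replicates 1, 2 and 4 and WT replicates 1, 2 and 3, with adjusted p of 0.0678, 0.102, 0.0926, 0.0736, 0.0995 and 0.0989), with all ages in 1 fit (0.131), and with the astrocyte or oligodendrocyte covariate (0.115 and 0.139). The change itself stayed at 0.25, 0.24 and 0.24 in those last 3 fits. In Q175 IP at 12 months Gjb1 had 35.8, 42.4, 44.3 and 49.0 CPM against 21.1, 26.6, 36.6 and 37.1 CPM, overlapping and not called (0.54 ± 0.17, adjusted p = 0.0996), and with the oligodendrocyte marker level as a covariate it had 0.54 ± 0.09 (adjusted p = 0.00991). That covariate also gave calls in Q175 input at 12 months (0.42 ± 0.09, adjusted p = 0.00932, from 0.20) and in Q175 IP at 6 months (0.21 ± 0.05, adjusted p = 0.0414, from 0.16).

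In R6/2 IP, Gjb1 was lower in mean at each age without a call, by -0.83 ± 0.29, -0.80 ± 0.41 and -0.89 ± 0.36 (adjusted p = 0.304, 0.269 and 0.121). At 3 months its NCAR libraries held 13.6, 35.4, 44.1 and 54.8 CPM and its R6/2 libraries 15.0, 15.5, 19.4 and 21.2 CPM, so that a single NCAR library, replicate 2, lay below all the R6/2 libraries. Without it the change was -1.32 ± 0.18 (adjusted p = 0.00208). The oligodendrocyte markers in these IP comparisons had medians of -0.70, -0.93 and -1.60. With their level as a covariate Gjb1 turned in sign at each age, to 0.16 ± 0.35, 0.35 ± 0.22 and 0.83 ± 0.25, and with the astrocyte level it had 0.58 ± 0.69, -0.70 ± 0.50 and 0.10 ± 0.76, none of them called. In R6/2 input the differences of Gjb1 were -0.29 ± 0.11, 0.08 ± 0.15 and 0.21 ± 0.12, none called.

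The neuronal connexin and the pannexins were called in no genotype comparison. Gjd2 was lowest against its control in Q175 input at 12 months, with 4.48, 5.01, 5.09 and 5.34 CPM against 5.71, 5.80, 6.19 and 7.03 CPM in WT. Those libraries did not overlap, and the log2 difference was -0.30 ± 0.11 (adjusted p = 0.0754, or 0.031 and called with all ages in 1 fit). Panx2 stood the other way in the same tissue and age, with 32.5, 34.9, 35.3 and 36.5 CPM in Q175 against 28.6, 29.1, 31.7 and 32.3 CPM in WT. All Q175 libraries were higher (0.20 ± 0.07, adjusted p = 0.0547). It was called with the deposited scaling (0.30 ± 0.06, adjusted p = 0.00467), and also with median-of-ratios scaling, without the filter on low counts, with voom weights and without Q175 replicate 1 (adjusted p = 0.0455, 0.0456, 0.0487 and 0.0247).

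In R6/2 input at 3 months Panx2 had 41.3, 49.4, 50.2 and 55.6 CPM against 30.7, 35.7, 36.7 and 46.5 CPM in NCAR, with overlap (0.38 ± 0.14, adjusted p = 0.0555). It was called without NCAR replicate 4 (0.50, adjusted p = 0.0226) or without R6/2 replicate 4 (0.46, adjusted p = 0.0225), and with the deposited scaling (0.40, adjusted p = 0.0468). It was also called in Q175 input at 6 months without WT replicate 4 (0.30, adjusted p = 0.0357) and in R6/2 input at 1 month without NCAR replicate 1 (0.33, adjusted p = 0.0183). Panx1 in R6/2 input at 2 months had 21.7, 24.5, 26.3 and 26.5 CPM against 18.2, 20.1, 20.2 and 21.2 CPM in NCAR. The groups did not overlap, and the difference of 0.32 ± 0.11 did not pass (adjusted p = 0.0731). It was called without R6/2 replicate 3 (0.37, adjusted p = 0.0389) and with the oligodendrocyte covariate (0.48, adjusted p = 0.0375). In IP the Panx2 differences ran from -0.20 to 0.14 over both models and the Panx1 differences from -0.09 to 0.27.

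Whether a genotype difference was the same in IP and input was tested as an interaction for each model and age, and 0 of 48 member tests were called by limma. The share of all genes called was 0.00643%, 0.0895% and 0.121% in Q175 at 2, 6 and 12 months and 0%, 0.0577% and 0.154% in R6/2 at 1, 2 and 3 months. An unadjusted p under 0.05 was found for 3.63%, 5.08% and 5.91% of all genes in Q175 and 8.48%, 8.63% and 7.81% in R6/2. The 3 member tests with an unadjusted p under 0.05 were all in R6/2 at 3 months: Gjc3 at -0.92 ± 0.27 (adjusted p = 0.277), Gjb1 at -1.07 ± 0.41 (adjusted p = 0.452) and Panx2 at -0.45 ± 0.19 (adjusted p = 0.527), where a negative value is a lower change in IP than in input. Without NCAR IP replicate 2 at 3 months Gjb1 had -1.50 ± 0.21 (adjusted p = 0.00269) and Gjc3 -1.15 ± 0.20 (adjusted p = 0.00904), so the outcome of both tests rests on that library. For Gja1 and Gjb6 the fall in R6/2 input was therefore not shown to differ from the uncalled change in IP (interactions of 0.23 ± 0.16 and 0.24 ± 0.22 at 3 months).

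The unlike course of Gjb1 and Gjc3 was described by the ratio of their reads within each library, which does not depend on scaling. This ratio, and that of Gjb6 to Gja1, were chosen after their values had been seen. In Q175 input at 6 months log2(Gjb1/Gjc3) was -0.68, -0.46, -0.41 and -0.38 against -1.33, -1.12, -1.07 and -0.88 in WT. The Q175 libraries were all higher, by 0.62 on the log2 scale. The same held in Q175 IP at 12 months (0.57), Q175 input at 12 months (0.45), R6/2 input at 2 months (0.44) and R6/2 input at 3 months (0.52), which makes 5 of 12 comparisons with the mutant higher and apart, and 0 with it lower and apart. The share of other gene pairs that lie apart was not computed, so nothing is read from this count. Each of the 5 has an exact two-sided permutation p of 0.0286, the smallest that 4 against 4 libraries can give. The adjusted p over 24 tests is 0.114, so none passes the correction. At this smallest p the correction could be passed only if many of the 24 tests reached it. No conclusion is drawn from these p-values, since the pair was also chosen from its values.

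In R6/2 IP the ratio of Gjb1 to Gjc3 showed no such separation. The differences were -0.07, -0.04 and 0.37 at 1, 2 and 3 months, with overlap at each. Log2(Gjb6/Gja1) was lower and apart in 1 of 12 comparisons, Q175 IP at 12 months, where it was -2.85, -2.83, -2.62 and -2.61 against -2.52, -2.41, -2.29 and -2.27 in WT. That difference of -0.35 also had an exact permutation p of 0.0286 and an adjusted p of 0.114. In Q175 input at 12 months it was -0.30 (exact permutation p = 0.0571, adjusted p = 0.196), and in R6/2 at 2 and 3 months the differences lay between -0.04 and 0.11 with overlap. In R6/2 at 1 month the difference was -0.23 in input (exact permutation p = 0.114, adjusted p = 0.343) and -0.01 in IP, both with overlap.

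**Figure D5:**
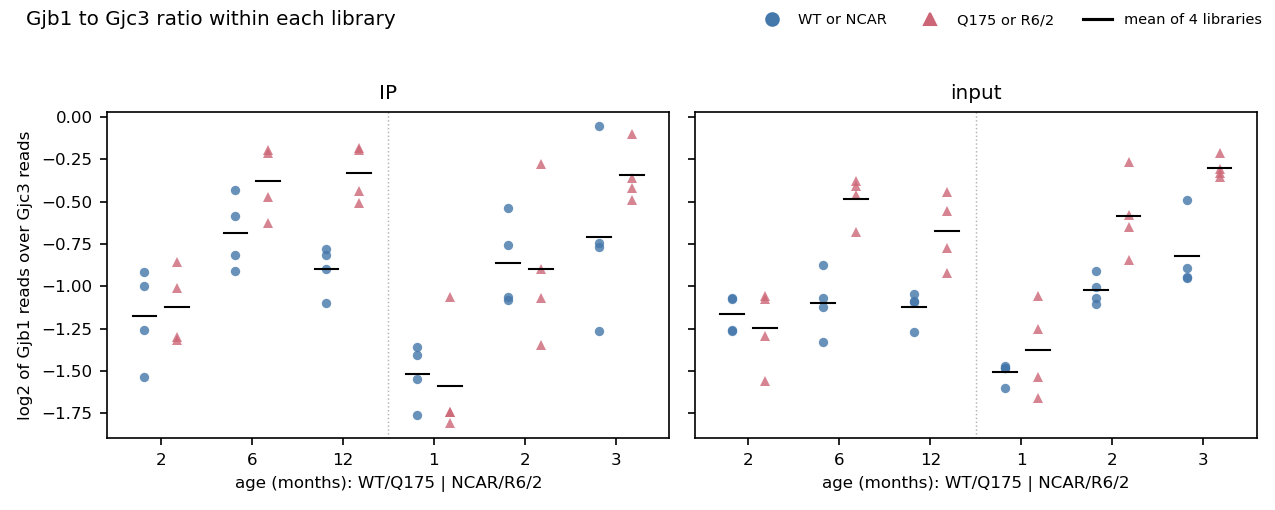
Log2 ratio of Gjb1 reads to Gjc3 reads in every library, by genotype, age and RNA type, with points for libraries and bars for group means. The mutant libraries lie above all control libraries in 5 of 12 comparisons, with group means apart by 0.44 to 0.62.

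For Gja4, Gja5, Gja6, Gjc1 and Gjd3, 0 of 55 genotype tests were called by limma, and 7 had an unadjusted p under 0.05. Of all genes, 3.42% to 40.9% had such a p, depending on the comparison. Gja4, which is known from vessel endothelium, was lower in IP than in input in all 6 control groups, with log2 differences of -1.35 to -2.12. Gjc1, a connexin of mural cells, was also lower in all 6 (-0.57 to -1.68) and fell with age in WT IP (-0.99 ± 0.19, adjusted p = 0.00436). Gja5, Gja6 and Gjd3 had group means of at most 1.22 CPM and 0 reads in some libraries.

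Of 12 genes for proteins that bind or modify connexins, 0 to 2 fell and 0 to 2 rose per genotype comparison, where up to 16.3% of all genes fell and up to 11.8% rose (R6/2 input at 3 months), so the list's counts are near those of all genes. Prkca, a protein kinase C that phosphorylates the Gja1 product, fell in R6/2 IP at 2 and 3 months (-0.84 ± 0.19 and -0.84 ± 0.20, adjusted p = 0.0309 and 0.0217) and in R6/2 input at 1, 2 and 3 months (-0.34, -0.53 and -0.64). Csnk1d rose in Q175 input at 12 months (0.13) and R6/2 input at 1 month (0.20), and Sgsm3 rose at 3 months in R6/2 IP (0.37) and input (0.29). The list's median lay between -0.02 and 0.13 over the 12 comparisons.

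Of 10 genes for the receptors and enzymes of extracellular ATP and adenosine, the released cargo of pannexin channels and connexin hemichannels, none rose in any genotype comparison. The most fell in R6/2 input at 3 months, 5 of 10 with a list median of -0.36, where 16.3% of all genes fell and 11.8% rose. Adora2a, the adenosine receptor of indirect-pathway medium spiny neurons, fell in 9 of the 12 comparisons, by log2 changes of -1.01 to -1.62. Entpd1, an ATP-degrading enzyme, fell in R6/2 input at each age (-0.52, -0.85 and -1.08), and Adora1 fell there too (-0.45, -0.77 and -0.89) and in Q175 input at 12 months (-0.19) and R6/2 IP at 3 months (-0.83). Nt5e, which makes adenosine from AMP, fell in Q175 input at 12 months (-0.33), and the microglial receptors P2ry12 (R6/2 IP at 3 months, -0.77) and P2ry13 (R6/2 input at 3 months, -0.61) fell as well. The medium spiny neuron markers were lower in the same comparisons, as given above, and their part was not tested.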

How the data were processed

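Per the labels, 96 striatal polyA RNA libraries, 48 IP and 48 input, fall into 24 groups of 4. The submitters' processing notes name STAR, HTSeq, edgeR and limma, with no versions, and the build mm10; strand use in counting is not stated. The authors deposited log2 CPM values in 3 tables, 1 for each run label. The lowest value of each table was taken as no reads, and a constant was fitted for each library. This turned 100% of these values into whole reads within 0.01. Tests used limma 3.58.1 in R 4.3.3 with an intensity trend. Their input was log2 CPM made anew from those whole reads, with TMM scaling (trimmed mean of M values, the trim being 30% for M and 5% for A) and 0.25 as the prior count. A gene entered a test where at least 4 libraries passed the level worth 10 reads at the median depth and its reads summed to at least 15. A call is a Benjamini-Hochberg adjusted p under 0.05 over all genes. The symbols March1 and March2, listed more than once, were left out. Scripts were tested on simulated data.

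The 12 genotype, 6 IP over input, 6 genotype by RNA type and 4 age comparisons were fitted separately. Group levels used 1 scaling over the libraries of a run label, and exon lengths came from GENCODE M21. The members and lists were chosen with earlier results of these data known. Genes named besides the members were Htt, the 3 input genes most like each member, the measured other connexins, and up to 4 called genes of each other list per genotype comparison, by smallest p; some genes that this rule takes are not reported here. Alternatives were the deposited scaling, median-of-ratios scaling, a prior count of 2, no filter, voom weights, all ages in 1 fit, marker covariates and leaving out each library. The read ratios and their alternatives were chosen after seeing the data. No 2 libraries of a group differed by as little as sampling noise.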

Additional observations from a re-analysis of the deposited data

Results flagged for a closer look

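In 19 of 192 groups of 4 libraries, 1 library stood apart by Dixon's gap test at the 95% level; chance alone flags about 1 in 20 groups, and no explanation was tested. For Gja1 the library far from its group was Q175 IP at 12 months, replicate 3, the highest with 738 CPM, R6/2 IP at 2 months, replicate 1, the highest with 1288 CPM, and NCAR IP at 1 month, replicate 4, the lowest with 2242 CPM. Gjb6 had 5 such libraries. Replicate 1 of NCAR at 1 month was lowest in both IP (100.1 CPM) and input (20.8 CPM), a shared number that ties no IP library to an input library. R6/2 IP replicate 2 was lowest at 1 month (109 CPM) and R6/2 IP replicate 2 was highest at 3 months (146 CPM). NCAR input replicate 1 at 3 months was highest with 37.8 CPM, and without it the Gjb6 fall in R6/2 input at 3 months was -0.36 ± 0.14 and lost its call (adjusted p = 0.0868, range over the alternatives 0.0243 to 0.326). Gjb2 was lowest in Q175 IP at 2 months, replicate 2 (10.4 CPM), and highest in WT IP at 6 months, replicate 4 (17.0 CPM).

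For Gjb1 the libraries apart from their groups were WT input at 12 months, replicate 2, the lowest with 20.1 CPM, R6/2 IP at 2 months, replicate 1, the highest with 24.1 CPM, and R6/2 input at 3 months, replicate 4, the lowest with 30.1 CPM. For Gjc3 they were Q175 IP at 12 months, replicate 2 (66.2 CPM), Q175 input at 2 months, replicate 2 (61.1 CPM), and R6/2 IP at 3 months, replicate 2 (28.3 CPM), each the highest of its group. Gjd2 was highest in WT input at 2 months, replicate 2 (7.31 CPM), and lowest in R6/2 IP at 2 months, replicate 1 (4.45 CPM), which is also the library highest for Gja1 and Gjb1. Panx1 was highest in Q175 input at 6 months, replicate 2 (26.0 CPM).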

How the results depend on the processing

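Member calls in R6/2 against NCAR were 5 as reported, 0 with the astrocyte marker level as a covariate, and 1 with the oligodendrocyte marker level, which is none of the 5 but Panx1 in input at 2 months. At 2 and 3 months the 4 calls became 7 with the ages of the run label in 1 fit, a fit that 1 month does not allow. The causes were not tested. Among all genes, calls in R6/2 input were 1910, 2455 and 4318 by age, and 51, 27 and 5 with the astrocyte covariate. With the oligodendrocyte covariate they were 877, 1944 and 178. In R6/2 IP they were 12, 842 and 2136, against 0, 640 and 26 with the astrocyte and 1, 213 and 462 with the oligodendrocyte covariate. The loss of calls was therefore not particular to the members. Member calls of genotype by RNA type were 0 and ranged from 0 to 2 when single libraries were left out. The counts for Q175 against WT, IP over input and age stayed within 1.5 times in the alternatives run, but in Q175 only 1 of the 3 calls was shared with the oligodendrocyte covariate, which gave 4. Of 3680 single values from alternatives, 173 turned in sign, 125 with a library left out, 25 with a covariate and 23 otherwise, and 2 of them had a call before or after: Gja1 in R6/2 input at 3 months was 0.10 with the astrocyte covariate, and Panx1 in WT IP over input at 12 months was -0.24 with the deposited scaling. The deposited CPM of a library summed to 1.0 M in the Q175 and WT table, and to 0.824 to 1.229 M in the R6/2 and NCAR tables. The deposited values were thus plain CPM in the first table and already scaled in the others. This alternative is therefore not the same in both cohorts. The deposited scaling raised the share of higher genes among all calls in Q175 input at 6 months from 38.5% of 2154 to 72.1% of 3423 and at 12 months from 36.1% of 2855 to 72.6% of 4405. In Q175 IP it raised it from 8.54% of 574 to 20.3% of 497 at 6 months and from 31.5% of 1059 to 53% of 1261 at 12 months. In WT it raised it with age from 44.8% of 3870 to 58.6% of 3974 in IP and from 54.9% of 4058 to 72.5% of 3792 in input. It lowered it in WT IP over input from 48.7%, 48.7% and 49.2% to 34.6%, 31.9% and 33.3%. The read ratios moved by less than the spread between libraries under the prior count of 2, an alternative chosen after seeing the data. Leaving out 1 of 4 libraries cannot move a group mean by that spread, so nothing is read from the left-out libraries here. Of the 16 input correlations of a gene with its marker list, 11 moved by 0.2 or more in IP libraries, 3 without the 2 libraries farthest from the median marker level (Gjb2 in Q175 and WT to 0.08, Gjb6 in R6/2 and NCAR to 0.13, Panx2 in Q175 and WT to 0.48) and none with rank correlation or the deposited scaling. No paired analysis was possible because the titles number libraries serially and no label ties libraries of different groups. Gjb2 and Gjd2, with the fewest reads, limit what could be detected in input.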
